A study of Homo sapiens with 8 samples.

Results

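Cohesin, the ring complex that holds sister chromatids together, was followed through the mRNA of 10 genes in sorted HT29 cells. The set held 5 core subunits (SMC1A, SMC3, RAD21, STAG1 and STAG2), the accessory subunits PDS5A and PDS5B, and 3 regulators that act on cohesin at set points of the cell cycle (ESCO2, CDCA5 and SGO1). Genes were taken by symbol, 10 of the 38148 genes in the deposited table. All 10 were among the 14219 genes tested. These had a mean log2 value over all libraries of at least that of 1 RPM (reads scaled to library size). HT29 is an epithelial line from a colorectal cancer with mutant BRAF, and selumetinib blocks MEK, the kinase downstream of BRAF that activates ERK. Cells were either untreated or exposed to selumetinib at 1 μM for 24 h, then fixed in glyoxal, stained for the mitotic cyclin CCNB1 and separated by flow cytometry. With and without the drug, a CCNB1-negative and a CCNB1-positive fraction were sequenced as mRNA, so that there were 4 groups, each with 2 libraries. All came from this 1 line, and nothing in the labels says whether replicates were separate cultures, so p-values measure the spread between these libraries, which may be technical.

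The sample labels contradict each other. In every library the title and the description disagree on whether the drug was given and on which fraction was collected, and the growth medium follows the title, so conditions here follow the descriptions, which are also the column names of the table. Read by the titles, the response of one fraction would be that of the other with its sign changed, the fraction differences would trade places between the treatments with their signs changed, and the difference of responses would stay as it is. CCNB1 mRNA was higher in the libraries described as CCNB1-positive than in those described as CCNB1-negative, by 2.09 (log2) in untreated and 5.08 in selumetinib-treated cells, and 5 of 5 ERK target genes (DUSP6, SPRY4, ETV4, ETV5 and CCND1) were lower in the libraries described as treated in both fractions. Reads on genes numbered between 12696860 and 23916160 a library, with the treated CCNB1-negative libraries the shallowest (13987432 and 12696860). All 7 epithelial markers had reads in every library, with summed levels of 9930 to 11016 RPM in untreated and 4578 to 6514 RPM in treated CCNB1-negative cells, and 9982 to 10068 RPM and 6143 to 8247 RPM in the CCNB1-positive fractions. These sums hide unlike directions. In CCNB1-negative cells EPCAM, KRT8 and KRT18 were called lower with the drug, CDX2 (1.06) and VIL1 (0.73) higher, and CDH1 and KRT20 neither. In CCNB1-positive cells EPCAM was called lower, CDX2 and VIL1 higher, and the rest neither. The 8 markers of leukocytes, endothelium and fibroblasts summed to between 7.32 and 18.7 RPM. At most 1 read was found for CD3E and COL1A2, 4 for DCN, 11 for PTPRC, 23 for VWF and 25 for PECAM1 in any library, while CD68 had 64 to 231 reads and COL1A1 6 to 107. COL1A1 was called higher with the drug in CCNB1-negative (1.81, adjusted p = 0.0043) and CCNB1-positive cells (2.19, adjusted p = 0.0015), though not with quantile normalization (0.67, adjusted p = 0.24, and 0.97, adjusted p = 0.12), and the part of such RNA in the results was not tested.

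SMC1A and SMC3 are the ATPases of the ring, the kleisin RAD21 closes it and is cut at anaphase, and either STAG1 or STAG2 binds RAD21. PDS5A and PDS5B sit on the same complex and serve both its release by WAPL and its stabilisation. During DNA replication ESCO2 acetylates SMC3 and CDCA5 (sororin) then keeps WAPL from opening the ring, while SGO1 (shugoshin) shields centromeric cohesin from removal in early mitosis. Outside cohesion the ring also forms chromatin loops with CTCF, which it does throughout interphase.

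Promoter windows from RefSeq (GRCh38.p14), each reaching from 250 bases before to 50 bases after a start site, were found for 8 of the 10 genes, in 11 windows, and RAD21 and ESCO2 had none in the table used. They were searched on both strands for the cell cycle homology region (CHR) as TTTGAA or TTTAAA, the NF-Y box CCAAT, and the E2F word TTTCGCG with its forms TTTGGCG and, last, TTTCCCG. The word TTCGAA, a variant CHR, was added to the search after the sequences had been read. The windows of SGO1 and CDCA5 are shown because both genes were called higher in the CCNB1-positive fraction of treated cells. That of PDS5B holds a CHR word in a gene not called between fractions in the main fit. A fit with a block for the pair of fractions called PDS5B between treated fractions, as given below. The window of STAG1 is shown because it was the core subunit whose mRNA rose. The windows shown lie at chr3:20186157-20186456 (minus strand), chr11:65083991-65084290 (minus), chr13:32586202-32586501 (plus) and chr3:136752329-136752628 (minus), and capitals mark the words found.
SGO1: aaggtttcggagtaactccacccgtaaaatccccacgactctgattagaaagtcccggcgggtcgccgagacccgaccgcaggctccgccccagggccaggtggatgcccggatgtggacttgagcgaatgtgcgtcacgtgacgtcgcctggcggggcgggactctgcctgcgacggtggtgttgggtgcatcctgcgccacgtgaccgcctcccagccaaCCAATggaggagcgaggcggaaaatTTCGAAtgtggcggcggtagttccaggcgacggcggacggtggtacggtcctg
CDCA5: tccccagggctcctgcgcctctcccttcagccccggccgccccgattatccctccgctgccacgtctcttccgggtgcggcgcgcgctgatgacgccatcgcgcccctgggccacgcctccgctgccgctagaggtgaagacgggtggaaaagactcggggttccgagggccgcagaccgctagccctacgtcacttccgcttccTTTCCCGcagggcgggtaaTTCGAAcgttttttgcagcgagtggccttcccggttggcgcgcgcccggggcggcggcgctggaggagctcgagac
PDS5B: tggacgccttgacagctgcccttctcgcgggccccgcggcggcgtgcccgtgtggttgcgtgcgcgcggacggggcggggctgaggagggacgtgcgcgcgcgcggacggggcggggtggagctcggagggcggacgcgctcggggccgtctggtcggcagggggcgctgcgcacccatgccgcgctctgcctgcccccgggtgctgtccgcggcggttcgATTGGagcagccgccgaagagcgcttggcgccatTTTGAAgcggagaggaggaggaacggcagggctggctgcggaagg
STAG1: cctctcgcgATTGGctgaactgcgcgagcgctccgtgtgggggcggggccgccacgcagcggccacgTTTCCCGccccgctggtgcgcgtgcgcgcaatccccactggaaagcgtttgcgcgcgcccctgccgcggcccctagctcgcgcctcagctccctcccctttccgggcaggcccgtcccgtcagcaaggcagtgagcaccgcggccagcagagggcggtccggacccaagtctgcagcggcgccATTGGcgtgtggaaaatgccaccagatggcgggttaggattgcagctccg
SGO1 held CCAAT at -28 and TTCGAA at -3 from its start, and CDCA5 held TTTCCCG at -45 and TTCGAA at -26. TTCGAA occurred in neither the PDS5B nor the STAG1 window nor in those of the other 4 genes with one, and 1.45% of 35116 promoter windows of this length held it. PDS5B carried CCAAT on its reverse strand at -29 and TTTGAA at 6, words held by 34.6% and 15.2% of all windows. STAG1 had CCAAT on its reverse strand at -241 and 1 and TTTCCCG at -183, a word found in 4.29% of windows. Of the windows not shown, SMC3 held TTTGAA on its reverse strand at -151, SMC1A held TTTCCCG at -20 in 1 of its windows, and CCAAT was found for PDS5A and STAG2. The CHR form TTTAAA was in none of the 11 windows, against 12.2% of all, and the shares for TTTCGCG and, apart from it, TTTGGCG were 1.32% and 1.92%, the latter with 1 match, in STAG2. These are matches of letters, and no binding was measured.

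Levels can be set against each other between genes only per length, so RPKM values (reads per kb of exon, over the union of annotated exons, and scaled to the reads on genes) were used for that. In untreated CCNB1-negative cells RAD21 had the highest level, at 36.9 ± 4.79 RPKM (SD, 2 libraries, as for all RPKM values here), followed by CDCA5 at 31.0 ± 4.70, and the libraries of these neighbours overlapped. SMC1A (15.8 ± 0.908 RPKM), PDS5A (13.7 ± 0.831) and STAG1 (9.45 ± 0.427) followed without overlap. SMC3 (7.54 ± 1.39 RPKM), PDS5B (6.54 ± 0.245), SGO1 (6.16 ± 0.924) and STAG2 (5.59 ± 0.358) each overlapped the next in order, and ESCO2 stood far lower, at 0.991 ± 0.216. The order among the core subunits depends on the gene model: over the longest transcript SMC3 (17.7 RPKM) overlapped SMC1A (17.3) and STAG2 (13.0) overlapped STAG1 (12.2), while RAD21 (63.8), CDCA5 (48.8) and ESCO2 (2.03) kept their places at either end. In treated CCNB1-negative cells STAG1 had the highest mean level of the 10 genes, at 22.7 ± 7.29 RPKM. PDS5A had 14.4 ± 1.61, RAD21 8.95 ± 1.78 and CDCA5 2.70 ± 0.0737 RPKM. Over the longest transcript STAG1 (29.4 RPKM) overlapped PDS5A (24.6) in these cells. ESCO2 was lowest there as well, at 0.127 ± 0.0494 RPKM.

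**Figure D1:**
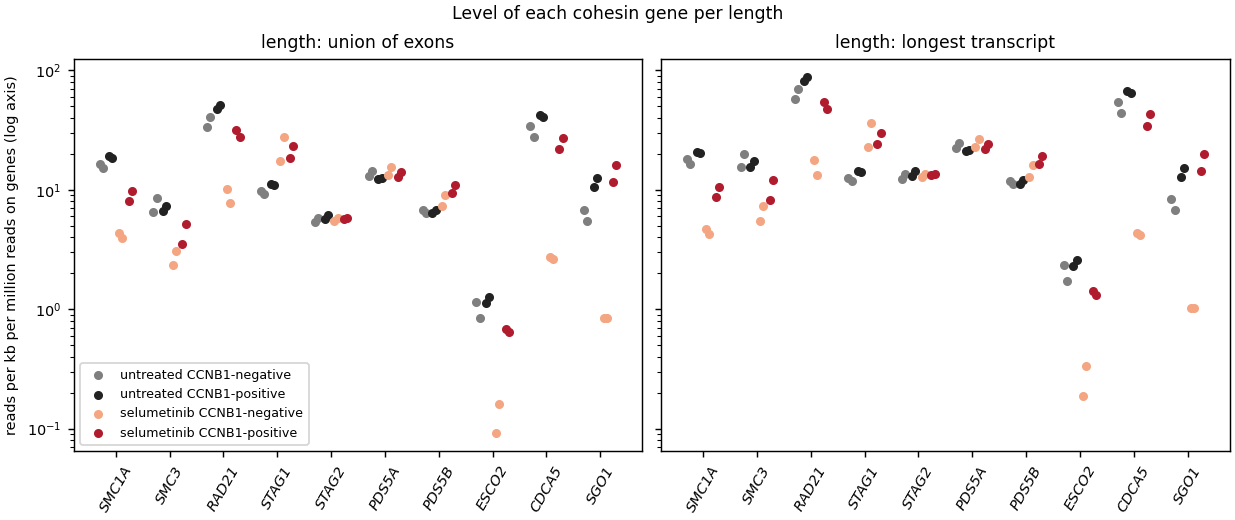
Level of each gene in each library, in RPKM on a log axis, over the union of exons (left) and over the longest transcript (right), with a colour for each of the 4 groups. RAD21 and CDCA5 are highest in both untreated groups and ESCO2 is lowest in every group by either length, while treated CCNB1-negative libraries lie below the others for SMC1A, SMC3, RAD21, ESCO2, CDCA5 and SGO1.

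Selumetinib lowered the cycle-regulated genes most in the CCNB1-negative fraction, and there the core ring split, with SMC1A, SMC3 and RAD21 lower, STAG1 higher and STAG2 not called. By limma on the deposited log2 values, which are log2 reads scaled to the largest library, 6 of the 10 genes were lower and 1 was higher at an adjusted p under 0.05. Over all tested genes 35.8% were lower and 38.2% were higher in the same comparison, and the median log2 difference was -1.85 for the 10 genes and 0.05 for all genes. In bulk libraries fewer cells that express a gene and less RNA in each cell cannot be told apart.

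CDCA5 stood at deposited log2 values of 11.64 and 11.34 in untreated CCNB1-negative libraries and at 7.88 and 7.80 in treated ones, from 2937 and 2061 reads against 150 and 131. It fell by 3.65 on the log2 scale (95% confidence interval -3.99 to -3.31, SE 0.16, adjusted p = 9.18e-10), which left 7.95% of the untreated level. Only 0.45% of tested genes had a lower response. ESCO2 went from log2 values of 7.73 and 7.30 to 3.97 and 4.76. With 196 and 125 reads against 10 and 16, its fall of 3.15 was the least precise (interval -3.80 to -2.50, SE 0.30, adjusted p = 5.69e-07). SGO1 went from log2 values of 9.25 and 8.95 to 6.11 and 6.08 (560 and 394 reads against 44 and 40). Its fall of 3.00 (interval -3.42 to -2.59, SE 0.19, adjusted p = 1.79e-08) was, like the others, far larger than the spread between replicates. Markers of cycle phase moved with these values: the summed level of CCNB1, CCNA2 and CDC20 was 319 to 352 RPM in untreated and 18.1 to 25.7 RPM in treated CCNB1-negative libraries, and that of CCNE2, PCNA and MCM5 was 629 to 706 and 38.9 to 51.5 RPM. The part of a changed mix of cycle phases in the cohesin values was not tested.

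RAD21, the kleisin, had log2 values of 13.49 and 13.77 in untreated and 11.65 and 11.22 in treated CCNB1-negative libraries. Its fall of 2.19 (interval -2.58 to -1.80, SE 0.18, adjusted p = 1.57e-07) was the largest of the core subunits. SMC1A went from 12.05 and 11.95 to 10.01 and 9.84, a fall of 2.08 (interval -2.39 to -1.76, SE 0.15, adjusted p = 3.63e-08). Its partner SMC3 went from 11.24 and 11.64 to 9.64 and 10.01 and fell by 1.62 (interval -2.04 to -1.19, SE 0.20, adjusted p = 5.64e-06). In this order, RAD21, SMC1A and SMC3 kept 21.9%, 23.7% and 32.6% of their untreated level.

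STAG1 moved the other way, with log2 values of 10.83 and 10.75 in untreated and 11.56 and 12.20 in treated CCNB1-negative libraries. It rose by 1.09 (interval 0.68 to 1.49, SE 0.19, adjusted p = 0.000134) or 2.13-fold, a response above that of 75.2% of tested genes. STAG2, its paralogue, stood at 10.99 and 11.14 in untreated and 10.91 and 10.97 in treated libraries, a difference of -0.12 (interval -0.42 to 0.18, adjusted p = 0.44). PDS5A had values of 11.89 and 12.03 against 11.79 and 11.99, a difference of -0.07 (interval -0.38 to 0.24, adjusted p = 0.68). PDS5B had 11.04 and 10.98 against 11.04 and 11.34, a difference of 0.18 (interval -0.15 to 0.50, adjusted p = 0.29). For PDS5A the groups overlapped, for STAG2 and PDS5B they nearly touched, and the sign of all 3 depends on how libraries are scaled. Scaling by the median ratio over genes (median-of-ratios) moved the median response of all genes from 0.05 to -0.21, and scaling to the total of nuclear genes without MALAT1 (nuclear-gene scaling) moved it to 0.36. With them STAG2 became -0.38 (adjusted p = 0.041) and 0.19, PDS5A -0.32 and 0.25, and PDS5B -0.08 and 0.49 (adjusted p = 0.010), whereas no scaling changed the call or the direction of the other 7 genes in this fraction.

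**Figure D2:**
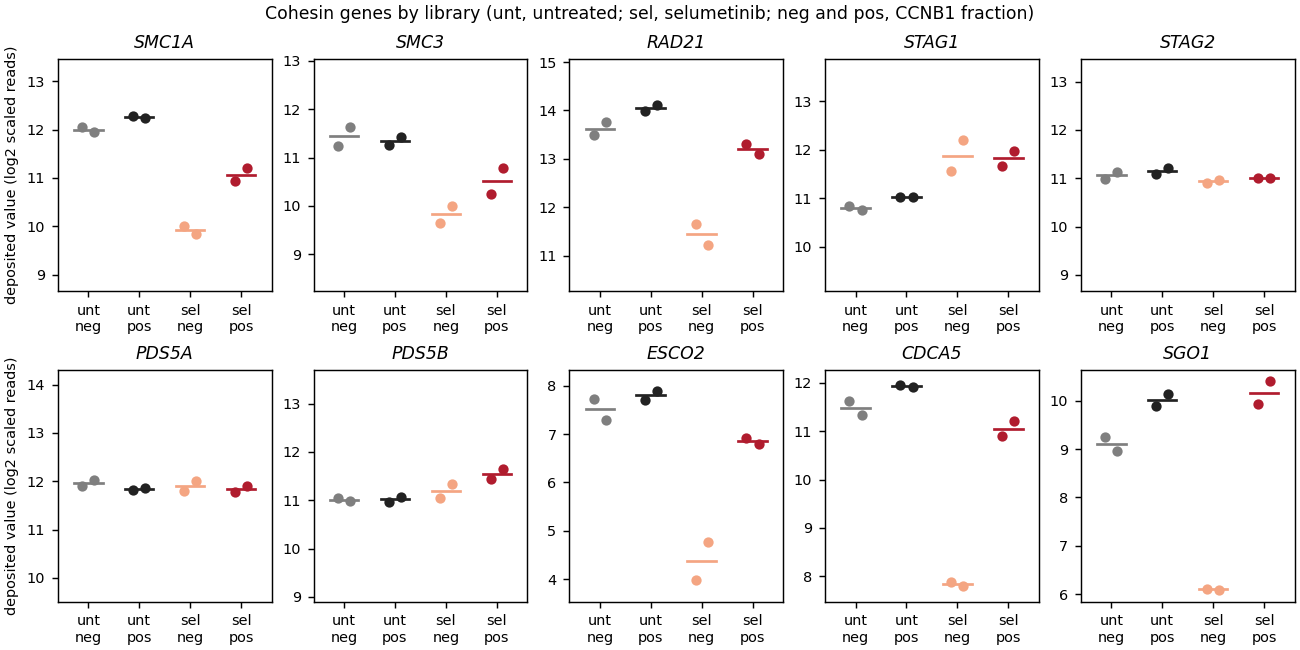
Deposited log2 value of each gene in each of the 8 libraries, with a bar at the mean of each group and axes of equal span. Treated CCNB1-negative libraries sit at 7.88 and 7.80 for CDCA5 and at 6.11 and 6.08 for SGO1, below all other libraries, while STAG2 and PDS5A vary little between groups.

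In the CCNB1-positive fraction SMC1A, SMC3 and RAD21 were again lower with the drug and STAG1 was again higher, while the regulators no longer moved together. Here 5 of the 10 genes were lower and 2 were higher, beside 27.3% and 38.0% of all tested genes, with medians of -0.49 for the 10 genes and 0.17 for all genes. SMC1A had log2 values of 12.27 and 12.24 in untreated and 10.93 and 11.20 in treated CCNB1-positive libraries and fell by 1.20 (interval -1.51 to -0.88, SE 0.15, adjusted p = 1.15e-05), the largest fall of the 10 genes in this fraction. RAD21 (13.99 and 14.11 against 13.32 and 13.10) fell by 0.84 (SE 0.18, adjusted p = 0.00118). SMC3 (11.26 and 11.43 against 10.26 and 10.78) fell by 0.82 (SE 0.20, adjusted p = 0.00244). Under quantile normalization the RAD21 difference was -0.26 (adjusted p = 0.21) and was not called.

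CDCA5 fell by 0.88 in CCNB1-positive cells (11.95 and 11.91 against 10.90 and 11.20, SE 0.16, adjusted p = 0.000254), leaving 54.2% of its untreated level. ESCO2 fell by 0.94 (7.71 and 7.89 against 6.91 and 6.81, with 209 and 217 reads against 107 and 71, adjusted p = 0.0142). That call was not stable: it was lost without untreated CCNB1-positive replicate 2 (-0.85, adjusted p = 0.080), without treated CCNB1-positive replicate 2 (-0.89, adjusted p = 0.069) and with nuclear-gene scaling (-0.69, adjusted p = 0.067). SGO1 had overlapping log2 values of 9.88 and 10.14 in untreated and 9.94 and 10.40 in treated libraries. Its difference was 0.16 (interval -0.26 to 0.57, adjusted p = 0.50), and its sign turned with median-of-ratios scaling (-0.19). The summed level of CCNB1, CCNA2 and CDC20 in this fraction was 1180 to 1377 RPM without and 650 to 706 RPM with the drug, and that of CCNE2, PCNA and MCM5 was 266 to 281 and 95.5 to 102 RPM.

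STAG1 rose in CCNB1-positive cells too, by 0.80 (11.03 and 11.02 against 11.67 and 11.97, interval 0.39 to 1.21, SE 0.19, adjusted p = 0.00211). PDS5B rose by 0.52 (10.96 and 11.07 against 11.43 and 11.64, adjusted p = 0.00811). The PDS5B call was lost with median-of-ratios scaling (0.18, adjusted p = 0.37), without untreated CCNB1-positive replicate 1 (0.46, adjusted p = 0.066) and without treated CCNB1-positive replicate 2 (0.41, adjusted p = 0.087). STAG2 differed by -0.15 (interval -0.45 to 0.15, adjusted p = 0.36) and PDS5A by 0.0033 (interval -0.31 to 0.31, adjusted p = 0.99). With median-of-ratios scaling, which put the median of all genes at -0.18, STAG2 was called lower (-0.49, adjusted p = 0.011) and PDS5A stood at -0.34 (adjusted p = 0.076).

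**Figure D3:**
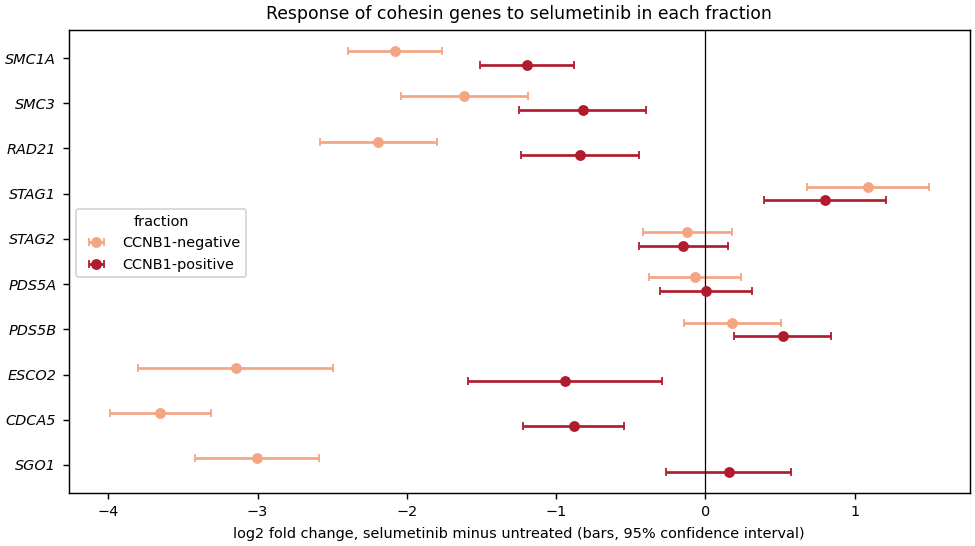
Log2 difference between treated and untreated libraries for each gene in each fraction, with 95% confidence intervals from limma and a line at no difference. In CCNB1-negative cells CDCA5 (-3.65), ESCO2 (-3.15) and SGO1 (-3.00) lie farthest to the left, in CCNB1-positive cells the SGO1 interval crosses 0, and STAG1 lies to the right of 0 in both.

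Few of the genes were called between the fractions of untreated cells without a block. A block for the pair of fractions added calls among the 10 genes and over all genes, as given below. In the fit without a block SGO1 was the single gene of the 10 called, higher in CCNB1-positive cells by 0.91 (interval 0.50 to 1.33, adjusted p = 0.0184), beside 1.36% of all tested genes higher and 1.51% lower. The SGO1 call was lost without untreated CCNB1-negative replicate 2 (0.77, adjusted p = 0.18), without untreated CCNB1-positive replicate 2 (0.78, adjusted p = 0.20) and with quantile normalization (0.86, adjusted p = 0.051). CDCA5 differed by 0.44 (adjusted p = 0.19), RAD21 by 0.42 (adjusted p = 0.32) and ESCO2 by 0.29 (interval -0.37 to 0.94, adjusted p = 0.79). For CDCA5 and RAD21 both CCNB1-positive libraries lay above both CCNB1-negative ones, and for ESCO2 the libraries overlapped. With 2 libraries a group such an order alone does not show a difference.

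In selumetinib-treated cells 6 of the 10 genes were higher in the CCNB1-positive fraction and none was lower, beside 13.8% and 7.87% of all tested genes. SGO1 was higher by 4.07 (interval 3.65 to 4.49, SE 0.19, adjusted p = 1.75e-09), or 16.8-fold. CDCA5 was higher by 3.21 (SE 0.16, adjusted p = 2.29e-09) and ESCO2 by 2.49 (SE 0.30, adjusted p = 4.95e-05). Among the core subunits RAD21 was higher by 1.77 (adjusted p = 9.03e-06), SMC1A by 1.14 (adjusted p = 8.55e-05) and SMC3 by 0.70 (adjusted p = 0.0241). The SMC3 call was lost without treated CCNB1-negative replicate 1 (0.51, adjusted p = 0.11) and without treated CCNB1-positive replicate 2 (0.43, adjusted p = 0.21). STAG1 (-0.06, interval -0.46 to 0.35), STAG2 (0.06, interval -0.24 to 0.36) and PDS5A (-0.05, interval -0.36 to 0.26) were not called. PDS5B (0.35, adjusted p = 0.11) was not called in the fit without a block.

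Whether the response to the drug itself differed between fractions was tested by the interaction, the response in CCNB1-positive minus that in CCNB1-negative cells. It was called and positive for 5 of the 10 genes, against 4.99% of all tested genes positive and 0.345% negative. For these genes the fall was smaller in CCNB1-positive cells or, for SGO1, no fall was called there. All 3 regulators were among them, with differences of 3.16 for SGO1 (SE 0.27, adjusted p = 7.10e-06), 2.77 for CDCA5 (SE 0.22, adjusted p = 4.51e-06) and 2.21 for ESCO2 (SE 0.43, adjusted p = 0.00592). RAD21 differed by 1.35 (SE 0.26, adjusted p = 0.00533) and SMC1A by 0.88 (SE 0.21, adjusted p = 0.0218). The SMC1A call was lost on leaving out untreated CCNB1-negative replicate 1 (0.83, adjusted p = 0.064) or 2 (0.93, adjusted p = 0.052), untreated CCNB1-positive replicate 1 (0.90, adjusted p = 0.080) or 2 (0.87, adjusted p = 0.081), treated CCNB1-negative replicate 2 (0.80, adjusted p = 0.062) or treated CCNB1-positive replicate 2 (0.75, adjusted p = 0.13). SMC3 had a difference of nearly the same size, 0.79, not called in the fit without a block (interval 0.19 to 1.40, adjusted p = 0.13). STAG1 (-0.29), STAG2 (-0.03), PDS5A (0.07) and PDS5B (0.34) had intervals that included 0.

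To set the regulators against the ring, the mean log2 value of ESCO2, CDCA5 and SGO1 minus that of the 5 core subunits was taken in each library and centred on the untreated CCNB1-negative group, with no test. It was 0.23 and -0.23 in untreated CCNB1-negative libraries, 0.34 and 0.40 in untreated CCNB1-positive, -2.35 and -2.22 in treated CCNB1-negative and 0.23 and 0.27 in treated CCNB1-positive libraries. The treated CCNB1-negative libraries thus stood apart from the other 6, by far more than the pooled SD between replicates of 0.17. The mean log2 value of the regulators was 5.99 and 6.21 in the treated CCNB1-negative libraries and between 9.20 and 9.98 in all others, while the mean of the core subunits was 10.75 and 10.85 and at least 11.43 in all others. Under quantile normalization the group mean was -3.11 in treated CCNB1-negative and -0.15 in treated CCNB1-positive cells, against -2.28 and 0.25. The mean of the core subunits joins genes with unlike responses in CCNB1-negative cells. SMC1A (-2.08), SMC3 (-1.62) and RAD21 (-2.19) fell, while STAG1 rose (1.09) and STAG2 was not called (-0.12). The regulators were not set against the falling subunits alone.

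Ratios of related genes within a library do not depend on its scaling. The ratio of STAG1 to STAG2 reads was 0.90, 0.77, 0.96 and 0.87 in the untreated libraries and 1.57, 2.34, 1.60 and 1.96 in the treated ones, so all 4 treated libraries were higher. The log2 ratio was higher by 1.08 over both fractions (exact permutation test within fractions, two-sided p = 0.0556, adjusted over 5 ratios 0.0926), and 0.0556 is the smallest p this design allows. PDS5A to PDS5B was 1.80, 2.07, 1.81 and 1.72 without and 1.68, 1.58, 1.27 and 1.20 with the drug, a log2 difference of -0.38 at the same p values, again without overlap. SMC1A to SMC3 differed by -0.42 (exact p = 0.111, adjusted 0.139), with overlap between the groups. ESCO1, the second SMC3 acetyltransferase, was called higher with the drug in both fractions (0.76 and 0.50, adjusted p = 0.00478 and 0.0486), the second not with median-of-ratios (0.16) or quantile (0.025) scaling. The ratio of ESCO2 to ESCO1 reads was 0.94 and 0.53 in untreated CCNB1-negative libraries, 0.95 and 1.04 in untreated CCNB1-positive, 0.042 and 0.052 in treated CCNB1-negative and 0.37 and 0.36 in treated CCNB1-positive libraries (log2 difference -2.68, exact p = 0.0556, adjusted 0.0926). The ratio of SGO1 to its relative SGO2 was 1.10 and 1.09 in untreated CCNB1-negative libraries and between 0.41 and 0.59 in the other 6, and treated and untreated libraries did not separate (-0.54, exact p = 0.333, adjusted 0.333).

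**Figure D4:**
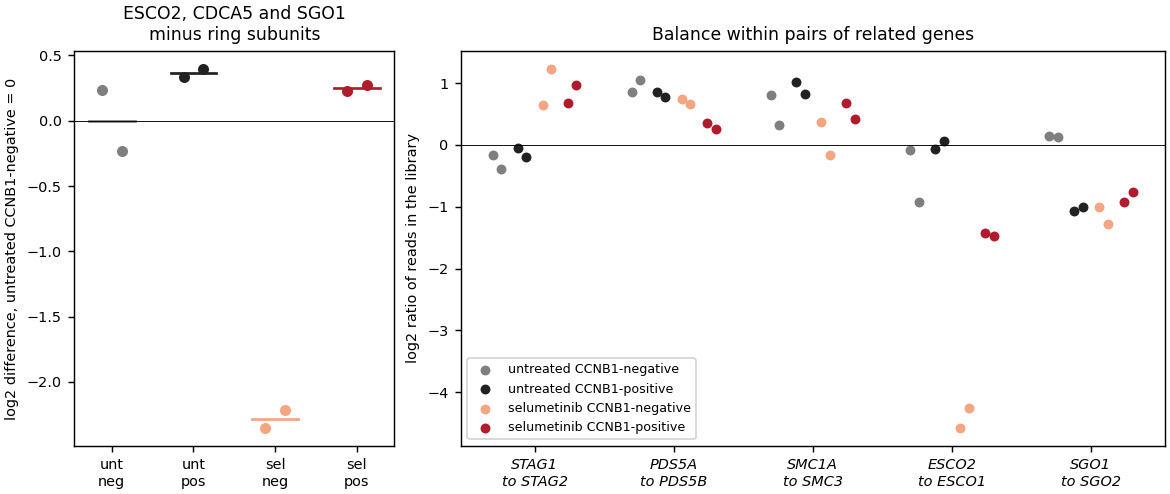
Left, mean log2 value of ESCO2, CDCA5 and SGO1 minus that of the core subunits in each library, relative to untreated CCNB1-negative cells, with a bar at each group mean. Right, log2 ratio of reads within 5 pairs of related genes in each library; ESCO2 to ESCO1 lies between -4.57 and -4.25 in treated CCNB1-negative libraries, and STAG1 to STAG2 is above 0 in all 4 treated libraries and below 0 in all 4 untreated ones.

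Some of these counts are uncertain because genes on opposite strands share exon sequence. The paper names a directional library kit, but the strand setting of the counting was not given in the sources used here. SGO1 and the antisense gene SGO1-AS1 share 593 exon bases. SGO1-AS1 had 5 and 26 reads in untreated CCNB1-negative libraries, 29 and 26 in untreated CCNB1-positive, 89 and 119 in treated CCNB1-negative and 93 and 75 in treated CCNB1-positive libraries. In treated CCNB1-negative cells it thus had more reads than SGO1 itself (44 and 40). STAG1 shares 1661 exon bases with PCCB, which had 1104 to 1206 reads in untreated and 399 to 603 in treated libraries, the opposite direction to STAG1. RAD21 shares 576 bases with UTP23 (616 to 2067 reads) and 271 with RAD21-AS1 (4 to 14 reads), SMC1A shares 39 with RIBC1, and STAG2 shares 241 with TENM1 and 28 with STAG2-AS1. The effect of shared exons on these values was not tested.

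Around the 10 genes, 34 others that load, release, modify, protect or cut cohesin were counted by role, of which 30 were tested. The 4 meiotic forms SMC1B, STAG3, REC8 and RAD21L1 were below the filter. In CCNB1-negative cells 22 of the 30 were lower and 7 were higher with the drug (median -1.43), beside 35.8% of all tested genes lower and 38.2% higher. In CCNB1-positive cells 12 were lower and 6 were higher (median -0.34), beside 27.3% and 38.0%. The loader subunits NIPBL (0.72 and 0.55 in CCNB1-negative and CCNB1-positive cells) and MAU2 (1.17 and 0.85) rose in both fractions. So did HDAC8 (2.04 and 1.44), which deacetylates SMC3. Of these calls only that of NIPBL in CCNB1-positive cells was lost under another scaling (0.20 with median-of-ratios, adjusted p = 0.28). The release factor WAPL was not called in either fraction (intervals -0.31 to 0.30 and -0.41 to 0.19). CTCF was called higher in CCNB1-negative cells (0.39, adjusted p = 0.0384), though not with median-of-ratios scaling (0.14, adjusted p = 0.48), and its difference of responses was not called (-0.46, adjusted p = 0.27). Between scalings the number of pathway genes called lower ran from 18 to 22 in CCNB1-negative and from 9 to 21 in CCNB1-positive cells, and no called gene of the list changed its direction.

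All 5 genes of cohesin cleavage and removal were lower in CCNB1-negative cells, where 35.8% of all tested genes were lower and 38.2% higher. The log2 differences were -2.10 for separase (ESPL1), which cuts RAD21, -3.58 for its inhibitor securin (PTTG1), and -3.32, -3.41 and -4.17 for the mitotic kinases PLK1, AURKB and CDK1. In CCNB1-positive cells ESPL1 (-0.08, adjusted p = 0.79) and PTTG1 (-0.29, adjusted p = 0.21) were not called while PLK1 (-1.36), CDK1 (-1.03) and AURKB (-0.52) were lower, the last not with quantile, voom or nuclear-gene scaling. The interaction was called and positive for all 5, beside 4.99% of all tested genes. Of 11 genes of centromere protection, 9 were lower and 2 higher in CCNB1-negative cells. The kinases that mark centromeres, BUB1 (-4.05) and HASPIN (-5.25, interval -6.30 to -4.20), both fell, the latter value resting on 4 reads and 1 read in the treated libraries against 114 and 99 in the untreated ones. SGO2 fell by 1.73, and of the phosphatase 2A subunits PPP2R5B (3.00) and PPP2R5E (1.19) rose whereas the catalytic PPP2CA fell by 1.43. All 8 genes of establishment at the replication fork were lower in CCNB1-negative cells, from -0.72 for CHTF8 to -4.13 for DSCC1, a subunit of the alternative clamp loader, and 5 were lower in CCNB1-positive cells, among them TIPIN (-1.15) and DSCC1 (-1.52). In untreated cells all 5 cleavage and removal genes were higher in the CCNB1-positive fraction (1.10 to 2.67), beside 1.36% of all tested genes. There 3 establishment genes (CLSPN, DSCC1 and TIPIN) were lower (-1.44, -0.87 and -0.87), beside 1.51% of all tested genes.

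**Figure D5:**
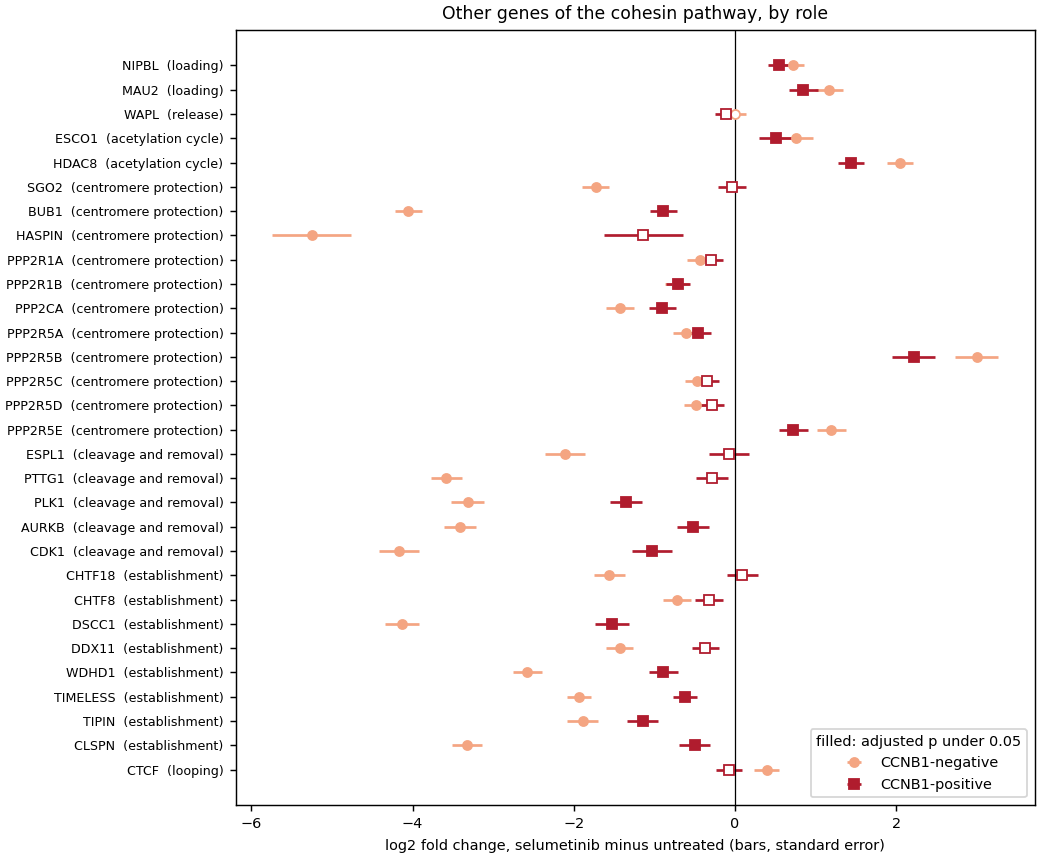
Log2 difference between treated and untreated libraries for 30 other genes of the cohesin pathway in each fraction, grouped by role, with bars of 1 standard error and filled points for an adjusted p under 0.05. Establishment and removal genes lie left of 0 in CCNB1-negative cells, down to -4.17 for CDK1, while NIPBL, MAU2, ESCO1 and HDAC8 lie right of 0 in both fractions.

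The related complexes built on SMC proteins were counted in the same way. All 8 condensin genes were lower in CCNB1-negative cells (median -2.59, from -4.18 for NCAPH to -1.68 for NCAPD2) and 6 were lower in CCNB1-positive cells, and all 8 interactions were called and positive. Over all tested genes 35.8% were lower and 38.2% higher in CCNB1-negative cells, 27.3% were lower in CCNB1-positive cells, and 4.99% had a positive interaction called. Of 8 genes of the SMC5/6 complex 5 were lower and 1 higher in CCNB1-negative cells (median -0.41), and 1 interaction was called, that of SLF1 (1.95). With quantile, voom or nuclear-gene scaling 3 SMC5/6 genes were lower and 2 higher, so that these counts depended on the scaling. Of the 5 core cohesin subunits 3 were lower and 1 was higher, with 2 interactions called in the fit without a block. That of SMC1A was lost on leaving out single libraries, as given above. That of SMC3 was added with either block, as given below. No test between the complexes was made.

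The genes with the most similar profile were found by the root-mean-square (RMS) difference of log2 values over the 8 libraries, each gene centred on its own mean. SGO1 was closest to FOXM1 (RMS 0.16), NEIL3 (0.20) and SPC24 (0.25). CDCA5 was closest to PLK4, SKA3 and TUBA1B (0.19 each), and ESCO2 to RAD54L (0.23), MYBL2 (0.24) and NCAPG2 (0.24). Among the core subunits RAD21 was closest to LBR, BCL2L12 and BUB3 (0.14, 0.14 and 0.15). The nearest profile thus lay farther off for ESCO2, the gene with the fewest reads, than for CDCA5, SGO1 or RAD21.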

How the data were processed

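The mRNA-seq data cover 8 libraries of HT29 cells in 4 groups. Per the labels and methods, trimming by the authors was with Trim Galore 0.5.0, alignment to GRCh38 with HISAT2 2.1.0, and counting per gene with normalization to total reads in SeqMonk 1.47.0. The deposited values are on a log2 scale, log2 reads per gene with each library scaled by the authors to the largest, and a gene with no read was given 0.9 reads before the log2. Annotation release and strand setting were not given in the sources used here, and 99.3% of gene identifiers were found in GENCODE 44. Whole reads (tolerance 0.3) were recovered for 100% of genes with reads, and gave the depth. The reads carry no molecular identifiers, and confidence intervals reflect the spread between libraries.

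Genes whose mean log2 value was at least that of 1 RPM were fitted with limma 3.58.1 (mean-variance trend, R 4.3.3). The fit had 1 coefficient per group over all 8 libraries. Benjamini-Hochberg adjustment was over 14219 genes, and genes were called at an adjusted p under 0.05. The planned design allowed for counts, linear or log2 values, and its log2 part applied. Ratios were tested by exact permutation with numpy 2.4.6 in Python 3.11.15. The script was tested on simulated data. The authors' own test was DESeq2. Alternatives were other scalings, filters, pseudocounts, thresholds and blocks, limma-voom on recovered reads, and leaving out each library. The genes, the lists of pathway genes and markers, and the tests were chosen with earlier results of these data known. All 10 cohesin genes are named in every comparison, pathway genes by counts with examples, and profile neighbours for ESCO2, CDCA5, SGO1 and RAD21. Replicates of each group differed beyond sampling noise (chi-square 15.6 to 30.2 per gene).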

Additional observations from a re-analysis of the deposited data

Results flagged for a closer look

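The response to selumetinib differed between the CCNB1-positive and the CCNB1-negative fraction, by the interaction in limma with Benjamini-Hochberg adjustment, for 5 of the 10 genes. Over all tested genes 4.99% had a positive and 0.345% a negative interaction called. The response in CCNB1-positive minus that in CCNB1-negative cells, on the log2 scale, was 3.16 for SGO1, 2.77 for CDCA5, 2.21 for ESCO2, 1.35 for RAD21 and 0.88 for SMC1A. SGO1 was called lower with the drug in the CCNB1-negative fraction only, and the other 4 genes were called lower in both fractions. The calls of ESCO2 and RAD21 in CCNB1-positive cells were lost in some alternatives, as given above. The SMC1A difference was lost without any 1 of 6 libraries (0.75 to 0.93, adjusted p between 0.052 and 0.13), as given above. Levels of phase markers differed between the same groups, and their part in these differences was not tested.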

How the results depend on the processing

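Of 50 results for single genes, 26 kept their direction and their side of the threshold in every alternative run, as did 902 of 965 alternatives, and no called difference changed its direction. No label says whether same-numbered libraries were paired. Deviations from group means of same-numbered libraries correlated at 0.35 and 0.43 between the fractions of one treatment but between -0.09 and 0.08 otherwise. Same-numbered fractions of one treatment thus shared part of their deviations, which the main fit without a block does not use. With the replicate block SMC3 gained a called difference of responses (0.79, adjusted p = 0.028) and no other call of the 10 genes changed. A block for the pair of fractions raised the calls over all tested genes. They were 675 higher and 1248 lower between untreated fractions, 3845 and 2826 between treated ones, and 2739 and 1111 for the difference of responses. Among the 10 genes it added PDS5B between treated fractions (0.35, adjusted p = 0.0057) and SMC3 in the difference of responses (adjusted p = 0.00049). Between untreated fractions it called 3 genes in place of 1 (CDCA5 0.44, adjusted p = 0.012, and RAD21 0.42, adjusted p = 0.011, beside SGO1). That count was 0 at an adjusted p under 0.01, with quantile normalization and without replicate 2 of either untreated group.

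Signs changed only in differences that were not called. In CCNB1-negative cells STAG2 became 0.060 with quantile normalization, 0.19 with nuclear-gene scaling and 0.018 with voom, PDS5A became 0.21, 0.25 and 0.071 in the same order, and PDS5B -0.077 with median-of-ratios scaling. In CCNB1-positive cells STAG2 became 0.10 with nuclear-gene scaling, and PDS5A and SGO1 -0.34 and -0.19 with median-of-ratios. Between untreated fractions SMC3 became 0.018 with median-of-ratios, and PDS5B -0.014 with quantile and -0.0031 with nuclear-gene scaling. Between treated fractions STAG2 became -0.015 with nuclear-gene scaling, and the PDS5A difference of responses -0.015 with median-of-ratios. Where leaving out 1 library changed a sign, the values ran from -0.17 to 0.032 for PDS5A in the CCNB1-negative fraction, from -0.056 to 0.062 for PDS5A and -0.075 to 0.39 for SGO1 in the CCNB1-positive fraction, from -0.29 to 0.10 for SMC3 and -0.049 to 0.064 for PDS5B between untreated fractions, and from -0.38 to 0.26 for STAG1 and -0.15 to 0.046 for PDS5A between treated fractions. The differences of responses ran from -0.61 to 0.032 for STAG1, -0.10 to 0.046 for STAG2 and -0.029 to 0.17 for PDS5A.

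The regulators minus the core subunits were -2.28 in treated CCNB1-negative cells, -3.11 with quantile normalization, -1.81 with 1 RPM added and -2.58 with PDS5A and PDS5B in the ring. In treated CCNB1-positive cells quantile normalization gave -0.15 in place of 0.25. Without 1 library they ran from -2.52 to -2.05, from 0.017 to 0.49 and, in untreated CCNB1-positive cells, from 0.13 to 0.60. The ratio of ESCO2 to ESCO1 was -2.10 with 1 RPM added against -2.68. Over the longest transcript levels in untreated CCNB1-negative cells were 17.3 RPKM for SMC1A, 17.7 for SMC3, 63.8 for RAD21, 12.2 for STAG1, 13.0 for STAG2, 23.4 for PDS5A, 11.5 for PDS5B, 2.03 for ESCO2, 48.8 for CDCA5 and 7.51 for SGO1.

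Over all tested genes 5438 were higher and 5092 lower in CCNB1-negative cells, but 6588 and 3854 with nuclear-gene scaling. In CCNB1-positive cells 5400 and 3888 became 3923 and 5663 with median-of-ratios, 3978 and 4392 with quantile and 6676 and 2614 with nuclear-gene scaling. Between untreated fractions 194 and 214 became 281 and 179 with median-of-ratios, 158 and 86 with quantile, and 675 and 1248 with the fraction block. Between treated fractions 1958 and 1119 became 2008 and 2182 with quantile, 1724 and 1721 with voom and 1560 and 1375 with nuclear-gene scaling. For the difference of responses 709 and 49 became 753 and 309 with quantile normalization. The cause of these shifts was not tested. Among the 10 genes depth limits ESCO2 in treated CCNB1-negative cells most, with 10 and 16 reads.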
